A study of Mus musculus with 10 samples.

Results

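The genes described here are 7 transcripts of B cells and of the plasma cells that B cells become: Igkc, Ighm, Jchain, Mzb1, Cd79a, Cd79b and Ms4a1. They were taken by symbol from a table of raw counts, in which each matched 1 of 52636 mouse Ensembl genes in the GRCm38 annotation. Counts came from polyadenylated RNA of 10 mouse melanoma tumours, and each tumour is 1 library. In 4 control tumours the genotype was BrafCA;Cdkn2af/f, a Braf allele that Cre recombinase switches to an oncogenic form together with a floxed Cdkn2a tumour suppressor locus. In the other 6 the genotype was BrafCA;Cdkn2af/f; Arf6Q67L, which adds ARF6, a small GTPase of membrane traffic, locked in its active, GTP-bound state, so both groups carry the Braf and Cdkn2a alleles. The labels give no promoter for Cre or for the Arf6 allele, and no age, strain or treatment. They do not say that each tumour is a separate animal, so p-values measure the spread between these tumours.

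A B cell carries an antibody on its surface as its antigen receptor, an immunoglobulin held in the membrane and coupled to the signalling chains CD79A and CD79B. When it becomes a plasma cell it stops relying on that receptor, switches in many cases from the mu heavy chain to a gamma, alpha or epsilon chain, and devotes much of its RNA to immunoglobulin and to the proteins that fold and join it. Igkc encodes the constant part of the kappa light chain, Ighm the constant part of the mu heavy chain, Jchain the joining chain that links IgM and IgA into polymers, and Mzb1 an endoplasmic reticulum chaperone of antibody assembly. Ms4a1 encodes CD20, a surface protein of B cells that plasma cells lose. In melanoma, B cells and plasma cells occur among infiltrating immune cells.

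Library totals lay between 28635414 and 40869091 counts. Values are given as CPM, counts scaled to library size with edgeR's TMM factors, and a count of 0 allows up to 3 counts, which is 0.0761 to 0.106 CPM depending on the library. Intervals and this floor describe counting error alone, because PCR copies of a molecule cannot be recognised without molecular identifiers. Of the defining markers of the pigment lineage, Tyr and Dct had 0 counts in all 10 tumours, Tyrp1 and Mlana had 0 to 3, and Mitf, the regulator of the lineage, lay between 11.1 and 26.1 CPM. Pmel, a melanosome gene, had 17 to 32 counts in every tumour, Sox10 had 2 to 99 (highest in Arf6Q67L tumour 6) and S100b 3 to 258 (highest in Arf6Q67L tumour 2). Of the 4 most specific pigment genes, none passed 3 counts in any tumour, and the rest of the list was detected throughout. In bulk tissue, fewer cells of a type and less RNA per cell cannot be told apart.

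None of the 7 genes passed the test of genotype given below. They were divided into sets by the tumour in which they were highest. Igkc, Jchain and Mzb1, below called the secretory set, were highest in Arf6Q67L tumour 4. Ighm, Cd79a, Cd79b and Ms4a1, below called the receptor set, were highest in control 4. These names are labels for the split, not functions shown by it. Igkc encodes a chain of surface and secreted antibody alike, and gene counts do not separate membrane and secreted forms of Ighm. Arf6Q67L tumour 4 held 86.8% of the Igkc CPM summed over the 10 tumours, 79.1% of the Mzb1 and 76.4% of the Jchain. Control 4 held 47.6% of the summed Ms4a1, 47.2% of the Ighm, 35.1% of the Cd79b and 33.6% of the Cd79a.

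Igkc (ENSMUSG00000076609, chromosome 6, 70726435 to 70726966, 1 constant region exon) stood at 1060.4 CPM in Arf6Q67L tumour 4, and at 0.568, 3.50, 2.62, 27.1 and 0.887 CPM in Arf6Q67L tumours 1, 2, 3, 5 and 6. The controls, numbered 1 to 4, had 64.0, 35.6, 0.846 and 25.5 CPM. The highest tumour was thus 16.6 times the next, control 1, and the groups overlapped, since control 3 lay among the lowest Arf6Q67L tumours. The lincRNA Gm30211 overlaps Igkc on the same strand and has a row of its own in the table. Reads over both genes cannot be assigned from these counts.

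Jchain (chromosome 5, 88519809 to 88527891, minus strand) followed the same tumours. It ran from 0.315 CPM in Arf6Q67L tumour 6 over a median of 0.953 to 103 CPM in Arf6Q67L tumour 4, and stood at 7.68, 10.3, 0.529 and 5.33 CPM in controls 1 to 4. Of the Arf6Q67L tumours, 1 of 6 lay above the control median. Mzb1 (chromosome 18, 35647267 to 35649367) was low outside 2 tumours. It had 403 counts in Arf6Q67L tumour 4 (12.6 CPM) and 73 in control 1 (1.85 CPM), against 1 to 8 counts in the other Arf6Q67L tumours and 4 to 17 in the other controls. Arf6Q67L tumour 4 and control 1 were therefore the highest tumours for both Igkc and Mzb1. An annotated gene named SPATA24 overlaps Mzb1 on the same strand, and its identifier has no row in the table.

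Ighm (ENSMUSG00000076617, chromosome 12, 113418558 to 113422730) took another order. Controls 1 to 4 had 2.97, 32.0, 5.36 and 90.8 CPM, and the Arf6Q67L tumours ran from 1.18 CPM in tumour 3 over a median of 4.90 to 31.5 CPM in tumour 4. Control 1, the second highest tumour for Igkc, was among the 3 lowest for Ighm. Arf6Q67L tumour 6 showed the opposite pattern, with 16.8 CPM of Ighm beside 0.887 CPM of Igkc.

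The signalling chain gene Cd79b (chromosome 11, 106311341 to 106314762) had the most counts of the receptor signalling genes. Control 4 had 13.8 CPM and control 2 had 5.41 CPM, with 1.75 and 1.23 CPM in controls 1 and 3, and between 0.758 and 5.17 CPM in the Arf6Q67L tumours (median 2.97). Its partner Cd79a (chromosome 7, 24897381 to 24902197) had 43 counts in control 4 and 36 in Arf6Q67L tumour 4. The other 8 tumours had 5 to 13 counts, and their exact Poisson intervals all overlap, so that no order among them was detectable at this depth. Ms4a1 (chromosome 19, 11249675 to 11266241) had 54 counts in control 4 (1.81 CPM, exact Poisson interval 1.36 to 2.36) and 18 in Arf6Q67L tumour 4 (0.564 CPM, 0.334 to 0.891), against 3 to 12 counts elsewhere. The antisense gene 4930526L06Rik overlaps Ms4a1, and the strand setting of the counting is not given in the sources used here.

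Per kilobase of exon, which allows levels of different genes to be compared, the median over the 10 tumours was 27.3 CPM for Igkc, 2.81 for Ighm, 2.07 for Cd79b, 1.27 for Jchain, 0.154 for Mzb1, 0.144 for Cd79a and 0.0321 for Ms4a1. The light chain was thus the most abundant of the 7 transcripts at the median, and CD20 the least.

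**Figure D1:**
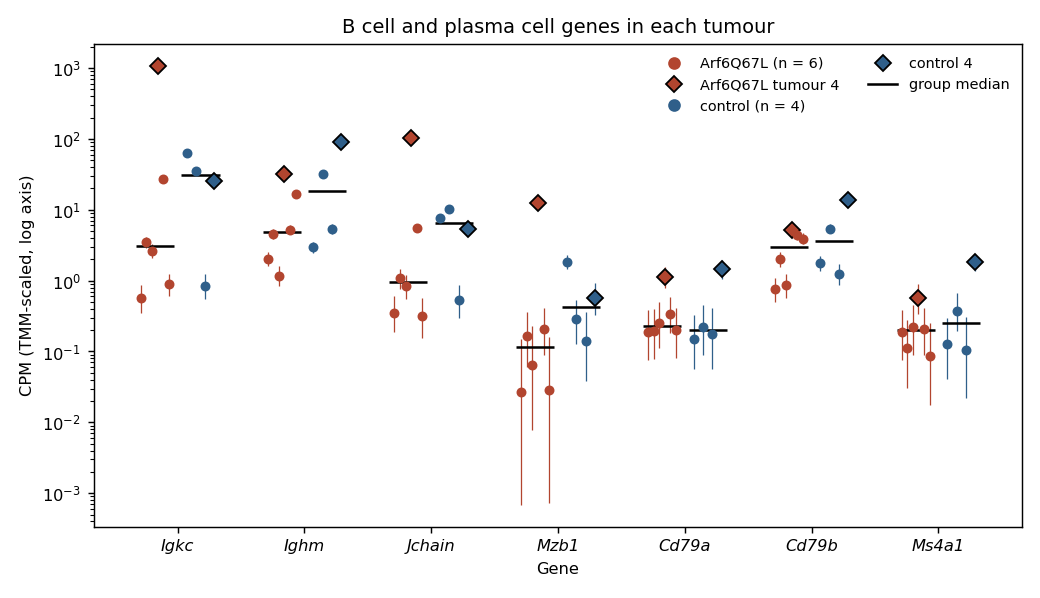
CPM of the 7 genes (log axis) in each of the 6 Arf6Q67L tumours and 4 controls, with exact 95% Poisson intervals for counting error and a bar at each group's median. Diamonds mark Arf6Q67L tumour 4, with Igkc at 1060.4 and Jchain at 103 CPM, and control 4, with Ighm at 90.8 and Cd79b at 13.8 CPM.

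Sequence upstream of the start is shown for a gene of each set, Jchain of the secretory set and Cd79a of the receptor set, since the 2 sets are highest in different tumours. The sequences are from RefSeq (GRCm38.p6), read 5′ to 3′ on the gene's strand, and 2 of the 7 genes were matched in that table. Jchain is given for chr5:88527898-88528147 (minus strand) and Cd79a for chr7:24897247-24897380 (plus strand), the bases before the annotated gene.
Jchain: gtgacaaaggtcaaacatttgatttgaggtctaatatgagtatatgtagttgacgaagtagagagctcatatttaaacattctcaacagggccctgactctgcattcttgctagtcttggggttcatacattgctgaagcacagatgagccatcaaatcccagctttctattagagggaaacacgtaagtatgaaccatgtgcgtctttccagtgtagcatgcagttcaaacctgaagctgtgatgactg
Cd79a: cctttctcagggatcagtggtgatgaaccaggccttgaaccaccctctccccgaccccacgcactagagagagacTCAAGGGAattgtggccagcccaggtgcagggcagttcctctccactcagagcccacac
Capitals mark a match to TCNNGGGA, a relaxed form of the EBF palindrome, the motif of the B cell transcription factor EBF1. This shorter pattern was written after the palindrome and the octamer ATGCAAAT, known from immunoglobulin promoters, gave no match in the 250 bases before RefSeq's start of either gene. For Cd79a that start lies inside the annotated gene, so the bases shown are the first 134 of the 250 searched. On both strands, the shorter pattern occurs in 15.1% of 32851 windows of 250 bases from RefSeq, the palindrome in 0.779% and the octamer in 1.60%. A match to the palindrome is not by itself a match to the shorter pattern. The match is a description of the letters.

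The comparison of genotypes was fitted with edgeR's quasi-likelihood test over all 17286 genes that passed the filter on low counts. Igkc, Ighm, Jchain and Cd79b passed it (4 of 7), and the values of Mzb1, Cd79a and Ms4a1 come from the same fit without the filter. Of the 4 tested, 0 passed an adjusted p of 0.05, where 0% of all genes did, and 0 had an unadjusted p under 0.05, against 11.7% of all genes. DESeq2 gave an adjusted p for 2 of the 4, Ighm (0.462) and Cd79b (0.628), and 0 of these passed, against 2.12% of the genes for which it gave one. The groups overlapped for all 4, while they did not overlap for 2.44% of genes. The log2 fold change was negative for 2 of the 4 and for 50.3% of all genes.

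None of the fold changes was larger than the spread between tumours by this test, and since the sets were formed by their highest tumour, the sign of a mean fold change is no separate result. In edgeR, Igkc had a log2 fold change of 2.53 (SE 2.15, adjusted p = 0.693) and Jchain of 1.64 (SE 1.69, adjusted p = 0.748), Arf6Q67L over control. Mean Igkc was 183 ± 430.2 CPM in Arf6Q67L tumours (SD, n = 6) against a control mean of 31.5 ± 26.1 CPM (SD, n = 4), while the medians lay the other way, at 3.06 and 30.6 CPM, as they did for Jchain (0.953 and 6.51 CPM) and Mzb1 (0.115 and 0.427 CPM). For the receptor genes, Ighm had a log2 fold change of -1.68 (SE 1.07, adjusted p = 0.577) and Cd79b of -0.96 (SE 0.75, adjusted p = 0.658) in edgeR. Without the filter, edgeR gave 1.58 (SE 1.83, adjusted p = 0.749) for Mzb1, -0.36 (SE 0.75, adjusted p = 0.886) for Cd79a and -1.37 (SE 0.77, adjusted p = 0.623) for Ms4a1. DESeq2 withheld its p-values for Igkc, Jchain and Mzb1, which it does for genes with an extreme count in 1 sample.

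For 6 of the 7 genes the sign turned when 1 tumour was left out. Without Arf6Q67L tumour 4 the log2 fold change was -2.18 for Igkc, -1.87 for Jchain and -2.80 for Mzb1, with edgeR adjusted p-values of 0.516, 0.478 and 0.372. The unadjusted edgeR p of Mzb1 was then 0.00509 in the fit without the filter. That fit left out the tumour holding 79.1% of the summed Mzb1, so this p is a description. Without the same tumour the log2 fold change was -2.46 for Ighm and -1.22 for Cd79b, and in the fit without the filter -1.84 for Ms4a1 and -1.04 for Cd79a. Without control 4 it was 1.06 for Cd79a, 0.039 for Cd79b and 0.19 for Ms4a1, and for Ighm it was -0.38. Ighm was the only one of the 7 whose sign held in all 10 fits that left out 1 tumour, from -2.46 to -0.38. With sex as a term, as read from Xist and Y-linked counts (3 Arf6Q67L tumours, tumour 4 among them, and 1 control were female), the log2 fold change was -0.17 for Igkc, -0.41 for Jchain and -0.43 for Mzb1, so that their sign also turned with all 10 tumours kept. The only female control was control 1, the second highest tumour for Igkc and Mzb1. Among controls the sex term thus rests on that 1 library.

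**Figure D2:**
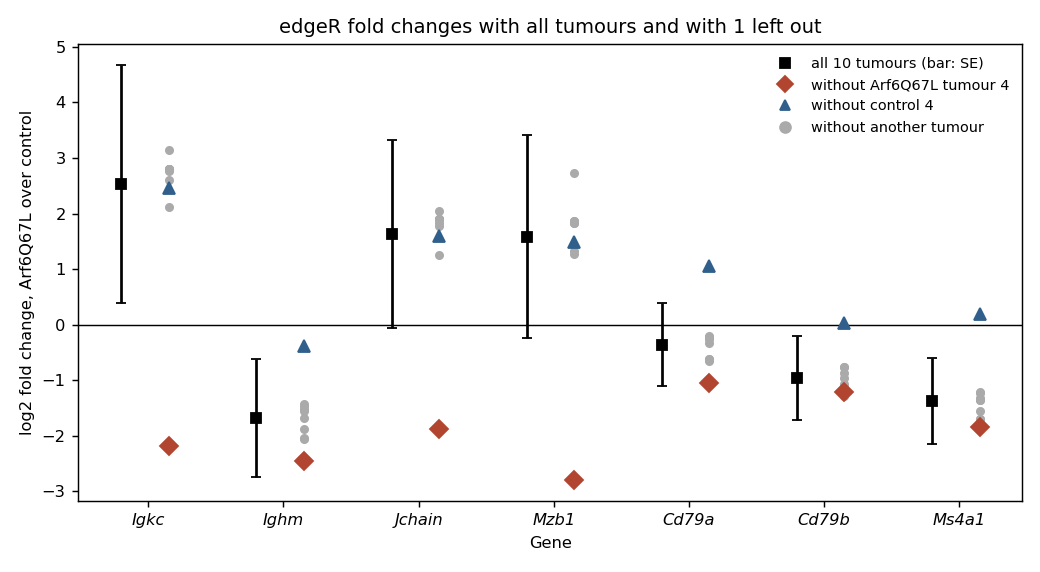
log2 fold change (Arf6Q67L over control) of the 7 genes in edgeR with all 10 tumours (squares, bars are SE) and with 1 tumour left out (other symbols). Igkc moves from 2.53 to -2.18 without Arf6Q67L tumour 4, and Cd79a from -0.36 to 1.06 without control 4.

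Across the 10 tumours the secretory genes were correlated with each other, and so were Ighm and Cd79b. Since the sets were formed by a shared highest tumour, correlation within a set over all 10 tumours is not independent of that choice. Correlations were computed on log2(CPM + 0.5) for all 21 pairs, with permutation p-values adjusted over the 21. Igkc and Jchain had Pearson's r = 0.99 (permutation p = 3e-05, adjusted p = 0.00063) and Spearman's rho = 0.952 (permutation p = 0.00011, adjusted p = 0.00231), and r was 0.981 without Arf6Q67L tumours 1 and 4, the 2 farthest from the Igkc median. Igkc and Mzb1 had r = 0.885 (permutation p = 7e-05, adjusted p = 0.000735) and rho = 0.927 (permutation p = 0.00042, adjusted p = 0.00406), with r = 0.753 without the same 2 tumours. Jchain and Mzb1 had r = 0.886 (permutation p = 0.00091, adjusted p = 0.00478) and rho = 0.915 (permutation p = 0.00058, adjusted p = 0.00406). Their r was 0.669 without Arf6Q67L tumours 4 and 6. Ighm and Cd79b had r = 0.928 (permutation p = 0.00013, adjusted p = 0.00091) and rho = 0.891 (permutation p = 0.00116, adjusted p = 0.00609), with r = 0.847 without controls 2 and 4.

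Igkc and Ighm, the light and heavy chains of IgM, were not past the threshold (r = 0.483, permutation p = 0.158, adjusted p = 0.195, rho = 0.37, permutation p = 0.298, adjusted p = 0.313), and r was 0.259 without Arf6Q67L tumours 1 and 4. Cd79a and Ms4a1 had r = 0.904 (permutation p = 0.00189, adjusted p = 0.00794) and rho = 0.77 (permutation p = 0.0127, adjusted p = 0.0532), but r was 0.433 without Arf6Q67L tumour 4 and control 4, so that the relation rested on those tumours. Cd79a and Cd79b had r = 0.737 (permutation p = 0.00544, adjusted p = 0.019) and rho = 0.685 (permutation p = 0.0344, adjusted p = 0.12). Their r was 0.375 without the same tumours. Some pairs across the 2 sets were closer once the 2 tumours farthest from the median were left out. Without Arf6Q67L tumour 4 and control 1, r of Mzb1 was 0.826 with Cd79a, 0.823 with Cd79b and 0.862 with Ms4a1, against 0.58, 0.32 and 0.319 over all 10 tumours (permutation p adjusted over the 21 pairs 0.146, 0.38 and 0.253). Control 4 was kept there and was the highest of the remaining tumours for all 4 genes, with 17 counts of Mzb1, 43 of Cd79a, 410 of Cd79b and 54 of Ms4a1. The other tumours kept had at most 9 counts of Mzb1, 13 of Cd79a and 12 of Ms4a1. These r were not computed without control 4 as well. Jchain and Cd79b had r = 0.555 over all 10 (permutation p = 0.0944, adjusted p = 0.146) and 0.729 without Arf6Q67L tumours 4 and 6. That 2 such correlations differ from each other was not tested.

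**Figure D3:**
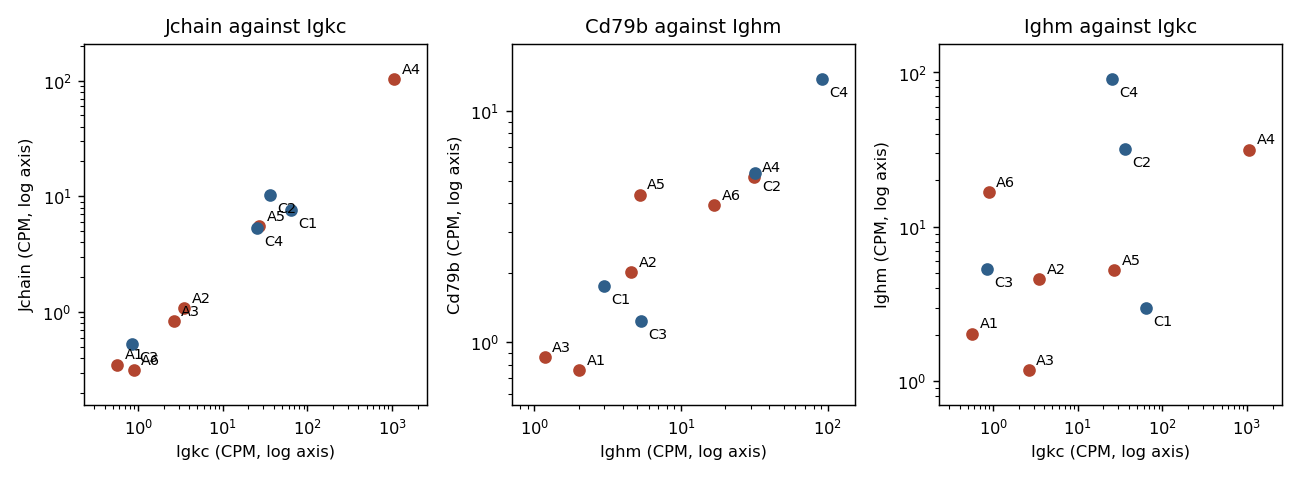
CPM of Jchain against Igkc, Cd79b against Ighm and Ighm against Igkc (log axes), with 1 point per tumour (A, Arf6Q67L; C, control). Points lie near a line in the first and second panels (r = 0.99 and 0.928) and scatter in the third (r = 0.483), where A6 has 16.8 CPM of Ighm with 0.887 of Igkc and C1 has 2.97 with 64.0.

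Counts of the heavy chain constant genes were divided by antibody class. A constant gene count does not show that its transcript carries a variable segment. Arf6Q67L tumour 6 had 643 heavy chain constant, 33 light chain constant and 6 heavy chain variable counts. For control 3 these were 178, 29 and 1, and for Arf6Q67L tumour 4 they were 64607, 34037 and 11146. Where variable counts are that few, a share describes constant gene counts, not antibody. Summed over Ighm, Ighd, the 4 gamma genes, Ighe and Igha, heavy chain counts ran from 119 in Arf6Q67L tumour 1 to 64607 in Arf6Q67L tumour 4. Ighg1, the IgG1 chain, made up 89.0% of them in Arf6Q67L tumour 4 (exact binomial interval 88.8% to 89.2%) and 80.2% in control 1 (79.0% to 81.3%). In all other tumours it was at most 23.7%, in Arf6Q67L tumour 2. The share of Ighm was 1.56% in Arf6Q67L tumour 4 (1.46% to 1.66%) and 2.51% in control 1 (117 of 4658 counts), the 2 lowest values. It was highest in Arf6Q67L tumour 6 (91.6%, 89.2% to 93.6%), control 3 (85.4%, 79.3% to 90.2%) and control 4 (78.4%, 76.9% to 79.7%).

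Igha, the chain of IgA, was the largest class in 2 Arf6Q67L tumours. It took 66.7% of heavy chain counts in Arf6Q67L tumour 3 (58.5% to 74.1%, of 150 counts) and 64.3% in Arf6Q67L tumour 5 (61.6% to 66.8%, of 1341 counts). In Arf6Q67L tumours 1, 2, 4 and 6 it took 25.2%, 24.7%, 1.29% and 5.13%, and in the controls 6.25% to 24.9%. The level of Ighg1 itself reached 1802 CPM in Arf6Q67L tumour 4, against 94.7 CPM in control 1, and Ighg1 had 0 counts in Arf6Q67L tumour 1 and control 3. In edgeR its log2 fold change was 3.51 (SE 2.99, adjusted p = 0.693). Ighd, the IgD chain that naive B cells carry beside IgM, had a log2 fold change of -2.54 (SE 1.13, edgeR unadjusted p = 0.0478, adjusted p = 0.423) and 107 of its 161 counts were in control 4. Ighg2b, Ighg2c and Ighg3 (log2 fold changes 1.27, 1.96 and -0.21) and Igha (0.05) did not pass either, with adjusted p between 0.754 and 0.994 in edgeR. The gamma genes are close relatives, as are the lambda constant genes Iglc1, Iglc2 and Iglc3, so that reads shared among them make the split within each family uncertain.

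**Figure D4:**
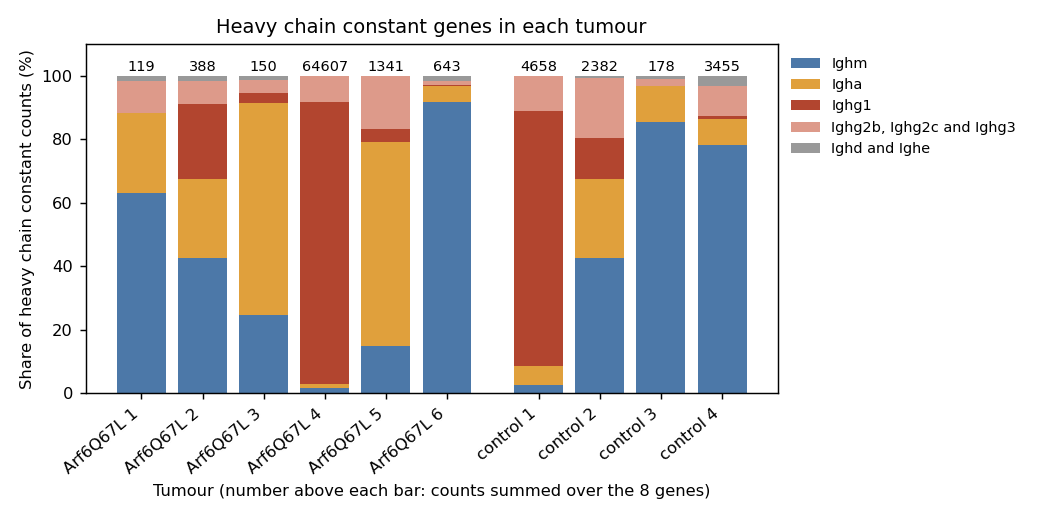
Share of heavy chain constant counts (%) taken by each class in every tumour, with the summed counts above each bar. Ighg1 fills most of Arf6Q67L tumour 4 and control 1 (89.0% and 80.2%), Igha most of Arf6Q67L tumours 3 and 5, and Ighm most of Arf6Q67L tumours 1 and 6 and controls 3 and 4.

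Of this makeup, the shares of Ighm and Igkc and the ratio of Igkc to receptor transcript were tested between genotypes, and none differed beyond the spread between tumours. The shares of the gamma genes and Igha were not tested. The share of Ighm was 39.8% ± 33.3 (SD, n = 6) in Arf6Q67L tumours and 52.2% ± 38.1 (SD, n = 4) in controls (two-sided exact permutation p = 0.586). Igkc made up 93.7% ± 5.96 (SD, n = 6) of light chain constant counts in Arf6Q67L tumours and 93.3% ± 7.24 (SD, n = 4) in controls (exact permutation p = 0.905). For each count of Cd79a and Cd79b together there were 168 counts of Igkc in Arf6Q67L tumour 4, 33.7 in control 1 and 0.215 in Arf6Q67L tumour 6. On the log2 scale, with 0.5 added to both counts, this ratio was 1.48 ± 3.32 (SD, n = 6) and 1.94 ± 2.50 (SD, n = 4), with an exact permutation p of 0.819. Adjusted over these 3 tests, p was 0.905 for each, and the smallest p the design allows is 0.00476.

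Variable segments, which each B cell clone joins to a constant gene, were spread unequally. In control 1, Ighv1-18 took 80.4% of 1186 heavy chain variable counts (exact binomial interval 78.1% to 82.7%) and Igkv3-4 took 69.6% of 1138 kappa variable counts (66.8% to 72.3%). In Arf6Q67L tumour 4, Ighv1-39 took 48.7% of 11146 counts (47.8% to 49.6%) and Igkv12-98 took 41.8% of 17173 (41.0% to 42.5%). In controls 2 and 4 the leading heavy chain segment took 13.2% and 11.6%, and the leading kappa segment 13.4% and 14.2%. Arf6Q67L tumour 5 lay between, with Ighv1-81 at 34.0% of 197 counts (27.4% to 41.1%) and Igkv1-117 at 36.8% of 476 (32.4% to 41.3%). The other 5 tumours had under 100 counts in either family, so their segment shares are not given. These segments were chosen for their values, and since segments are alike in sequence and mutate in B cells, a share describes counts assigned to a segment, not a clone.

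Other B cell genes, from a list of 19 surface and signalling genes, had the highest level in control 4 in 14 cases, and in 9 of the 13 that passed the filter, against 18.8% of all genes tested. Of the 13 tested, 0 passed in edgeR, 4 had an unadjusted p under 0.05 and 11 were negative, where over all genes 11.7% had such a p and 50.3% were negative. The median log2 fold change of the 13 was -0.72, and that of all genes tested was -0.00177. The 4 were Cd22, an inhibitory receptor of B cells (-0.82, SE 0.23), Cd72 (-2.35, SE 0.70), Cd180 (-1.90, SE 0.65) and Btk, the kinase below the receptor (-0.72, SE 0.28), and their adjusted p in edgeR lay between 0.283 and 0.375. In DESeq2, 1 of the 13 passed, Cd72 (adjusted p = 0.0339), against 2.12% of all genes. Cd72, Cd180 and Btk are also expressed by macrophages.

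Of 9 B cell transcription factors and coactivators, 8 were tested and 0 passed, with a median log2 fold change of -0.15. Ikzf3 (-2.38, SE 0.97) and Pou2f2 (-1.38, SE 0.50) had the lowest p, with edgeR adjusted p-values of 0.393 and 0.357. Ikzf3 was highest in control 4 (37.7 CPM) and control 2 (21.2 CPM), the tumours where T cell markers also summed highest. The part of other cell types in its level was not tested. Pou2af1, a coactivator of octamer-binding factors in B cells and plasma cells, followed the secretory set, with 8.81 CPM in Arf6Q67L tumour 4 against 0.160 to 1.11 CPM elsewhere. Pax5, which sets B cell identity, had 14 counts in control 4, 8 in Arf6Q67L tumour 4 and 0 to 2 in the others.

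Of 9 plasma cell genes, 8 were tested, 6 were negative at a median of -0.16, and 0 passed. Most of them are also active in other secretory cells, and Xbp1 (-0.17, SE 0.14), Sdc1 (-0.37, SE 0.35), Creld2 (-0.16, SE 0.17) and Fkbp11 (-0.23, SE 0.26) reached adjusted p-values of 0.678 to 0.769 in edgeR. Irf4, a factor that drives plasma cell differentiation, was highest in Arf6Q67L tumour 4 (8.40 CPM) and control 4 (5.10 CPM), the leading tumours of the 2 sets. In the others it lay between 0.524 and 1.70 CPM. Derl3 and Fkbp11 were also highest in Arf6Q67L tumour 4. The rest of the list was not: Prdm1 was highest in Arf6Q67L tumour 6 (59.2 CPM, against 25.5 in tumour 4) and Sdc1 and Txndc5 in Arf6Q67L tumour 3. Xbp1 was highest in control 1, Creld2 in control 2 and Tnfrsf17 in control 4. Of 6 germinal centre genes 4 were tested and 0 passed (median log2 fold change -0.04), among them Bcl6 (-0.32, SE 0.19, edgeR adjusted p = 0.557).

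Factors that attract or sustain B cells were negative in 7 of 8 tested members, at a median log2 fold change of -0.74, with 0 past the threshold. Il7 (-1.18, SE 0.49), Ltb (-1.52, SE 0.71), Tnfsf13b, which encodes the survival factor BAFF (-1.40, SE 0.69), and Il6 (-1.39, SE 0.70) had the lowest p, and their adjusted p in edgeR lay between 0.403 and 0.476. Tnfsf13b was at 11.4 CPM in control 4 and at most 3.85 CPM elsewhere. Cxcl13, the chemokine of B cell follicles, was highest in Arf6Q67L tumour 2 (17.8 CPM), where Igkc was 3.50 CPM, and had 0 counts in control 3. The chemokines Ccl19 and Ccl21a of lymphoid tissue had 0 counts in all 10 tumours, which allows up to 3 counts in each for counting error. Both have near-identical copies in the mouse genome, so that reads shared with a copy may be missing and their levels are uncertain. The 4 markers of lymph node venules and stroma, Ccl21a among them, summed to at most 0.800 CPM in any tumour.

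Most T cell and macrophage markers were highest in control 4, 12 of 13 (not Cd4) and 6 of 8 (not Mrc1 and Cd14), where 18.8% of all genes tested were. All 13 T cell markers were tested and all 13 were negative (median log2 fold change -2.02), 6 had an unadjusted p under 0.05 in edgeR, and 0 passed, beside 50.3% negative and 11.7% with such a p over all genes. Their summed level was 519 CPM in control 4 and 368 in control 2, the 2 highest tumours for Ighm and Cd79b, 68.3 and 84.4 in controls 1 and 3, and 32.6 to 153 in the Arf6Q67L tumours. The part of infiltration as a whole in the receptor genes' pattern was not tested. Of 8 macrophage markers, 7 were negative (median log2 fold change -0.78), 5 had an unadjusted edgeR p under 0.05 and 0 passed. They summed to 3403 CPM in control 4, against 780 to 2283 CPM in all other tumours. Plasmacytoid dendritic cells share Jchain, Mzb1 and Cd79b with this lineage. Their 6 markers summed to 3.98 to 17.4 CPM in Arf6Q67L tumours and 3.63 to 22.1 CPM in controls, highest in control 4 and then Arf6Q67L tumour 4, none at 0 over all tumours, and 0 of 6 passed (median -0.34). Siglech, which marks that cell type, reached 7.33 CPM in Arf6Q67L tumour 4, with control 2 next at 5.69 CPM, and its part in the level of Jchain or Mzb1 was not tested. Of 4 natural killer cell markers tested (median -0.43), 0 passed. Red blood cell markers summed to 163.9 CPM in control 3 and 5.54 to 81.4 CPM elsewhere, and keratinocyte markers to at most 2.57 CPM.

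Among 12623 other protein-coding genes, those among the 3 with the highest Pearson's r to Igkc over the 10 tumours included Serpina3n (r = 0.92, rho = 0.83) and Il7r (0.853, rho = 0.891). For Jchain they included Serpina3n (0.911) and Galnt16 (0.883). Serpina3n, which encodes a secreted serine protease inhibitor, ran from 9.27 to 161 CPM and was highest in Arf6Q67L tumour 4. Without the 2 tumours farthest from the Igkc median, r with Igkc was 0.914 for Serpina3n and 0.636 for Il7r. Nearest to Cd79a were Nr4a3 (r = 0.946, rho = 0.661), Stim1 (0.885, rho = 0.636) and Col28a1 (0.882, rho = 0.248). Without Arf6Q67L tumour 4 and control 4, r with Cd79a was 0.20, 0.36 and -0.425 for these 3. Nearest to Ms4a1 were Zfp994 (r = 0.97, rho = 0.745), Hprt (0.934, rho = 0.733) and Gk (0.929, rho = 0.903), with r of 0.667, 0.70 and 0.80 without the same tumours. These genes were picked as the highest of many, so r is a description and no p is given.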

How the data were processed

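The authors deposited 1 table of raw counts per Ensembl gene, with whole numbers and 1 column for each of the 10 libraries. The submitters' processing notes list STAR 2.5.2b, featureCounts 1.5.1, DESeq2 1.18.0 and GRCm38, giving no roles. For strand and for multiply mapped reads, the counting settings were not given in the sources used here. Libraries were made with a stranded polyA kit, per the labels' protocols. Columns were matched by the library identifier in the labels, and tumours are numbered in accession order, so numbers pair nothing. The library numbers run in blocks by genotype, so order of preparation and genotype cannot be told apart. Of the identifiers, 52403 (99.6%) had a symbol, and coordinates and exon lengths come from GENCODE M21 (GRCm38). In all 21 pairs of tumours of 1 group, counts differed by more than sampling noise, with a lowest chi-square per gene of 77.9.

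edgeR 4.0.16 in R 4.3.3 was run with filterByExpr (minimum count 10), TMM, robust glmQLFit and glmQLFTest with genotype as the term, and Benjamini-Hochberg adjustment over all 17286 genes at 0.05. The SE is the fold change over the root of F. On simulated data for this comparison, over 17286 genes, 30% of 100 genes at a fold of 2 were found and 68% of 100 at a fold of 4, beside 4 false calls. Correlations used 100000 permutations. Composition tests were exact over all 210 ways to divide the tumours into 6 and 4. Alternatives were DESeq2 1.42.0, limma 3.58.1 (voom with quality weights), other size factors, no filter, sex as a term and leaving out each tumour.

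The members and lists were chosen with earlier results of these data known. The text names the 7 members, every constant gene, up to 4 members of lowest p in each other list, defining markers, and the 3 genes of highest r with 4 of the members, where the mean log2 CPM was 0 or more. Pax5, Pou2af1, Irf4, Cxcl13, Siglech and the variable segments were named after their values were seen. So were Ebf1, Bach2, Tcf3, Prdm1, Derl3, Txndc5 and Tnfrsf17, to give the highest tumour of other members of those lists. Counting genes highest in control 4 was likewise chosen after seeing the values. Some genes that the rule names are not reported here.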

Additional observations from a re-analysis of the deposited data

Results flagged for a closer look

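In 40 groups of values (the 7 genes, the other constant genes and 3 measures of composition, in each genotype), the highest tumour stood apart from the rest by Dixon's test in 17. Chance flags about 1 group in 20 where values are normal and groups independent, which these skewed CPM values of genes correlated within a tumour are not, so the number is a description. Of the 17, 13 are in Arf6Q67L tumour 4. In Arf6Q67L tumour 4 this held for Igkc (1060.4 CPM), Jchain (103 CPM), Mzb1 (12.6 CPM), Cd79a (1.13 CPM) and Ms4a1 (0.564 CPM). It also held there for the heavy chain genes Ighg1 (1802 CPM), Ighg2b (57.9 CPM), Ighg2c (100.9 CPM), Ighg3 (4.20 CPM) and Ighe (1.57 CPM) and for the lambda genes Iglc1 (2.38 CPM), Iglc2 (2.07 CPM) and Iglc3 (1.75 CPM). In control 4 it held for Cd79a (1.44 CPM), Ms4a1 (1.81 CPM) and Ighd (3.59 CPM), and in control 1 for Ighg1 (94.7 CPM). Ighm, Cd79b and Igha had no such tumour in either genotype.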

How the results depend on the processing

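No member with an adjusted p passed 0.05 in any of the alternatives run (DESeq2 gave none for Igkc, Jchain and Mzb1), while over all genes the number called was 0 in edgeR, 409 in DESeq2, 2 in limma-voom and 0 to 1 with 1 tumour left out (1 without control 1). Ighm kept its sign in all 15 alternatives. With limma-voom the log2 fold change reversed to -0.22 for Igkc, -0.35 for Jchain, -0.47 for Mzb1 and 0.36 for Cd79a, and with sex as a term to -0.17, -0.41 and -0.43 for the first 3. Leaving out 1 tumour moved Igkc from -2.18 to 3.14, Jchain from -1.87 to 2.04, Mzb1 from -2.80 to 2.72, Cd79a from -1.04 to 1.06, Cd79b from -1.29 to 0.039 and Ms4a1 from -1.84 to 0.19, and each sign turned in 1 of 10 fits. The difference in the share of Igkc (0.37 percentage points) ran from -3.15 to 2.34 with 1 tumour left out and was -0.96 over tumours with at least 100 light chain counts (exact permutation p = 0.90). That of the log2 ratio of Igkc to Cd79a and Cd79b (-0.46) ran from -1.64 to 0.59 and was 0.87 over tumours with at least 100 counts of those genes (exact permutation p = 0.80). That of the share of Ighm (-12.5) ran from -29.1 to -1.43. No paired analysis was possible because the labels give no replicate number that the groups share. Depth limits Mzb1, Cd79a and Ms4a1, whose counts in most tumours lie near the floor.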
